A study of Danio rerio with 2 samples.

Results

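Of the genes measured in whole swim-trained and untrained zebrafish larvae, 41 that mark neurons and their synapses form the set described here: the vesicle release machinery, the neuronal cytoskeleton, the enzymes and carriers of neurotransmitters, and a few general neuronal genes. They were listed by name, with earlier results of these data known, and no measured value entered the rule. A probe belonged to the set when its RefSeq accession matched 1 of these genes under its current or an older symbol. This held for 94 of 43603 probes and for 37 of the 41 genes, out of 12900 genes named on the array. No probe was matched here to syt1a, syt2a, tuba1c or sv2a, which were not analysed here. The listed vamp1 was matched through its current symbol vamp1a, and cplx2 through cplx2a and cplx2b, which both carry it as an older symbol.

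The trained group was a pool of wild-type larvae of a Wageningen by Tubingen (Zod2) background, made to swim for 3 hours a session between day 5 and day 10 after fertilisation. The control group was a pool of untrained larvae of the same background and age. Both were sampled whole at 10 days, and each pool held 400 ng of RNA from each of 10 fish. The same pools were hybridised on 2 Agilent arrays with the dyes exchanged, with the trained pool in Cy5 on array 1 and in Cy3 on array 2. The design text of the series gives 1 orientation for both arrays, so the direction of every ratio below rests on the sample titles and descriptions. With 1 pool per condition there was no biological replicate, and no standard deviation across fish or p-value was computed. In RNA of whole larvae, fewer neurons and less RNA per neuron cannot be told apart.

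Neurons release transmitter when a vesicle fuses with the membrane of the nerve ending. Fusion is driven by SNARE proteins, of which Vamp sits on the vesicle and Snap25 and syntaxin on the membrane. Complexins clamp and assist the SNAREs, and synaptotagmins sense the calcium that triggers release. What a neuron releases is set by its enzymes and carriers: Gad enzymes make GABA, vesicular carriers of the Slc17a, Slc32a and Slc18a families load glutamate, GABA and acetylcholine, and tyrosine and tryptophan hydroxylases start the synthesis of dopamine and serotonin.

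A probe was counted as measured when both pools were well above background on both arrays, as flagged by the scanner software. This held for 30886 of all probes (70.8%) and for 90 of the 94 member probes, so that each of the 37 matched genes had at least 1. No spot was saturated. Median background was 24 to 24.5 units in Cy3 and 82 to 82.5 in Cy5, against median spot signals of 136 to 137.5 and 155.5 to 178.5. Across all measured probes the ratios of the arrays had a Pearson correlation of -0.04 (0.11 by the deposited ratios), and across the 90 member probes -0.22. In the log2 ratio averaged over both arrays, repeated spots of 1 probe varied by an SD of 0.08 (20 probes with over 3 spots). By the same average, measured probes of 1 gene varied by an SD of 0.12 (6037 genes with at least 2). Neither SD shows the difference between the arrays. The dye component, the mean of the arrays before the sign is turned, had an SD of 0.19 over all measured probes. The mean ratio had 0.18. The number of arrays limits the precision.

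None of the 37 genes was 1.5-fold higher or lower in the trained pool on both arrays, the size rule used in place of a test. The same rule was met by 71 of 11121 measured genes on the higher side (0.638%) and by 6 on the lower side (0.054%). A rule of 1.2-fold was met by 0 members in either direction, against 3.74% of all genes on the higher and 1.35% on the lower side, and a rule of 2-fold also by 0 members, against 0.027% on the higher side. Mean log2 ratios of trained over control ran from -0.25 for slc32a1 to 0.29 for elavl3, so that the largest mean difference was 1.22-fold. The median over the 37 genes was 0.023, against -0.0027 over all measured genes. By array, the median over the 37 genes was 0.11 on array 1 and -0.04 on array 2, against -0.0015 and 0.016 over all measured genes.

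The arrays gave the same direction for 13 of the 37 genes. In the trained pool 8 genes were higher on both arrays, which is 21.6% of the members against 24.3% of all measured genes, and 5 were lower on both, which is 13.5% against 22.1%. The other 24 were opposite on the arrays (64.9%, against 53.6% of all genes). Of these 24, 17 had the positive ratio on array 1 and 7 on array 2. Among all 5957 measured genes that were opposite, 2817 had the positive ratio on array 1 and 3140 on array 2. Over the 37 genes 19 mean ratios lay above 0 and 18 below it.

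**Figure D1:**
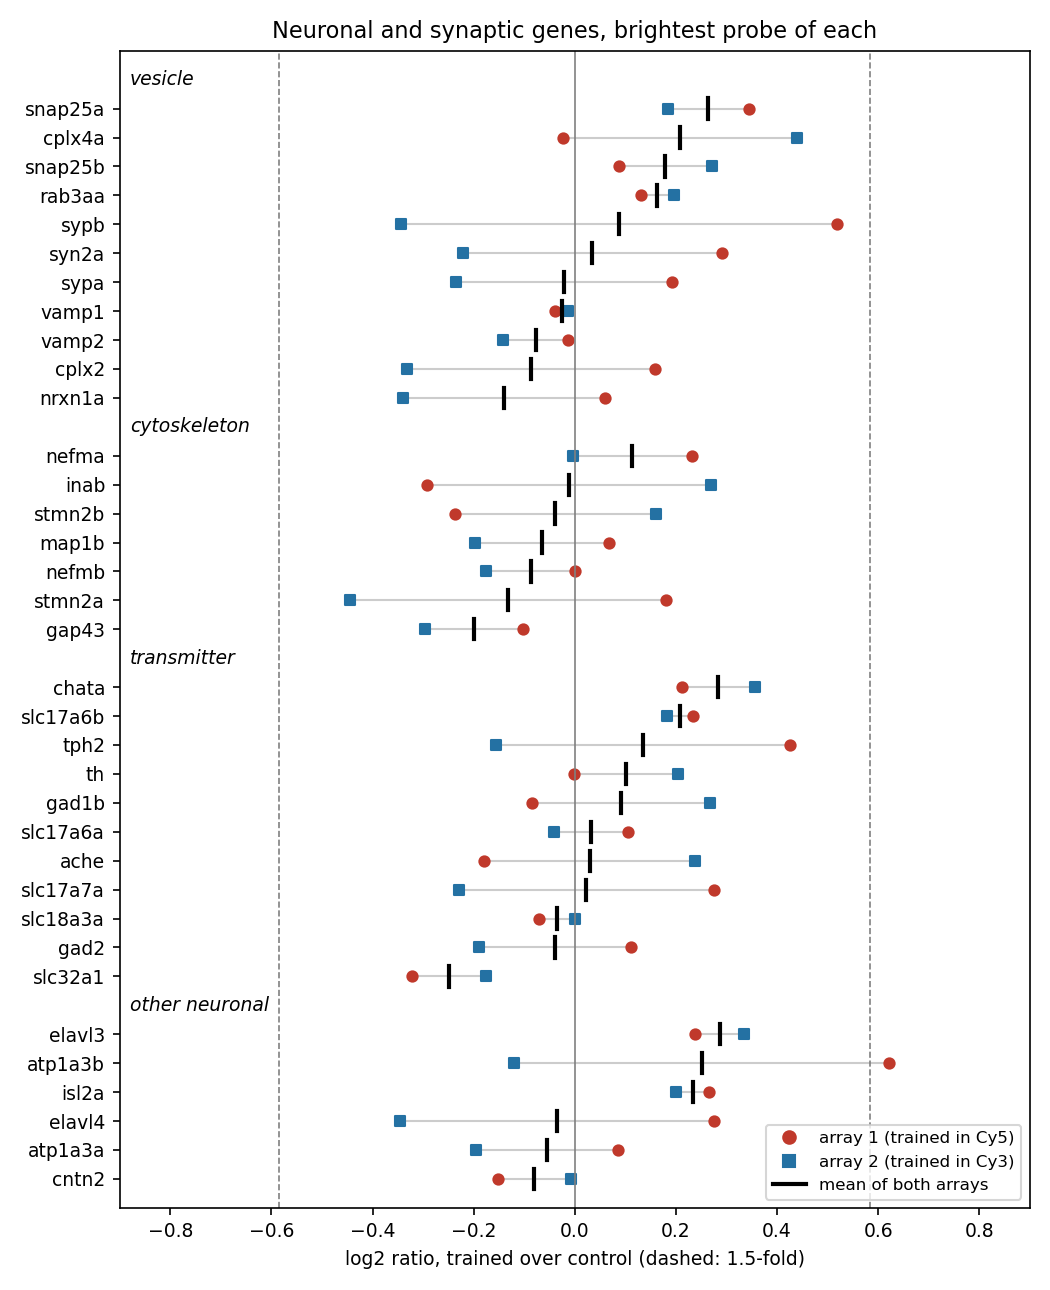
Log2 ratio of trained over control for the brightest measured probe of each of 35 of the genes, on array 1 (circles), array 2 (squares) and as the mean of both (bars), grouped by role; dashed lines mark 1.5-fold. No gene lies beyond 1.5-fold on both arrays, and the markers of 23 of those plotted fall on opposite sides of 0.

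The vesicle group held 16 genes, of which 13 were measured. The arrays were opposite for 7 of them (53.8%), while 4 were higher (30.8%) and 2 lower (15.4%) on each array, not all of which are named below. Of all measured genes, 53.6% were opposite, 24.3% higher and 22.1% lower. The median log2 ratio of the 13 vesicle genes was 0.035, with 0.14 on array 1 and -0.14 on array 2. Over other ways of processing both arrays it ran from 0.035 to 0.15, the highest by the deposited ratios.

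Both genes of the membrane SNARE Snap25 were on the higher side. On array 1 snap25a stood at 12.26 in trained and 11.92 in control larvae, and on array 2 at 11.94 in trained and 11.76 in control larvae. The mean ratio was 0.26, and the trained pool was brighter on each array. Its other 3 probes had mean ratios of -0.02, 0.14 and 0.046, and the mean over its 4 probes was 0.11. For snap25b the levels were 9.20 in trained and 9.11 in control larvae on array 1, and 9.33 in trained and 9.06 in control larvae on array 2. Its probes were the closest of any member with more than 1 probe, with mean ratios of 0.18 and 0.19, each positive on both arrays. Thus snap25b had the smaller ratio of the pair by its brightest probe but the more even one between probes. It was not more even between arrays, with 0.09 and 0.27 on arrays 1 and 2 against 0.34 and 0.18 for snap25a.

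The small GTPase gene rab3aa, whose product tethers vesicles near the membrane, had 7.32 in trained and 7.18 in control larvae on array 1. On array 2 it had 7.09 in trained and 6.89 in control larvae, and the mean ratio of its only probe was 0.16. The complexin gene cplx4a was opposite on the arrays by both of its probes. Their ratios were -0.02 and -0.07 on array 1, against 0.44 and 0.33 on array 2, with means of 0.21 and 0.13. In mammals complexin 4 is known from the ribbon synapses of the retina. Outside the member list, the complexin gene cplx3a had ratios of -0.09 and -0.08 on arrays 1 and 2, and cplx3b had 0.13 and -0.02. Photoreceptor markers had a median ratio of 0.39 over 11 measured genes, of which 10 had means above 0. They ran from -0.09 for rho to 1.55 for pde6ha. Markers of other retinal cells had a median of 0.10 over 7 genes, of which 5 had means above 0. Means above 0 were found for 5478 of all 11121 measured genes. The part of retinal cells in the ratio of cplx4a was not tested.

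The vesicle SNARE genes were close to 0. For vamp1 (vamp1a) the ratios were -0.04 and -0.013, from levels of 11.57 and 11.68 in trained and 11.61 and 11.69 in control larvae on arrays 1 and 2. Its second probe had a mean of 0.21 and was positive on both arrays, so the probes of vamp1 did not share a direction. For vamp2 the levels were 11.65 and 11.70 in trained and 11.66 and 11.84 in control larvae, with ratios of -0.013 and -0.14.

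By their brightest probes, the vesicle genes described next changed sign with the array. The vesicle membrane protein synaptophysin is encoded by sypa and sypb. Their ratios were 0.19 and -0.24 for sypa and 0.52 and -0.34 for sypb on arrays 1 and 2. The 4 probes of sypb ran from -0.07 to 0.35 in the mean of both arrays, the widest range of any vesicle gene. The highest, the second brightest, had ratios of 0.45 and 0.24. Of the 4 probes, 2 were positive and 1 was negative on both arrays. The synapsin gene syn2a, whose product anchors vesicles in the reserve pool, had 0.29 and -0.22. The complexin gene cplx2 had 0.16 and -0.33 by its brightest probe, which belongs to cplx2a, and the only probe of cplx2b had 0.22 and -0.04. A dimmer probe of cplx2a was positive on both arrays, with 0.15 and 0.06. The adhesion gene nrxn1a, which encodes a presynaptic neurexin, had 0.06 and -0.34. Each of its 4 probes had a mean below 0, from -0.14 to -0.03. Only 2 of the 4 were negative on each array.

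**Figure D2:**
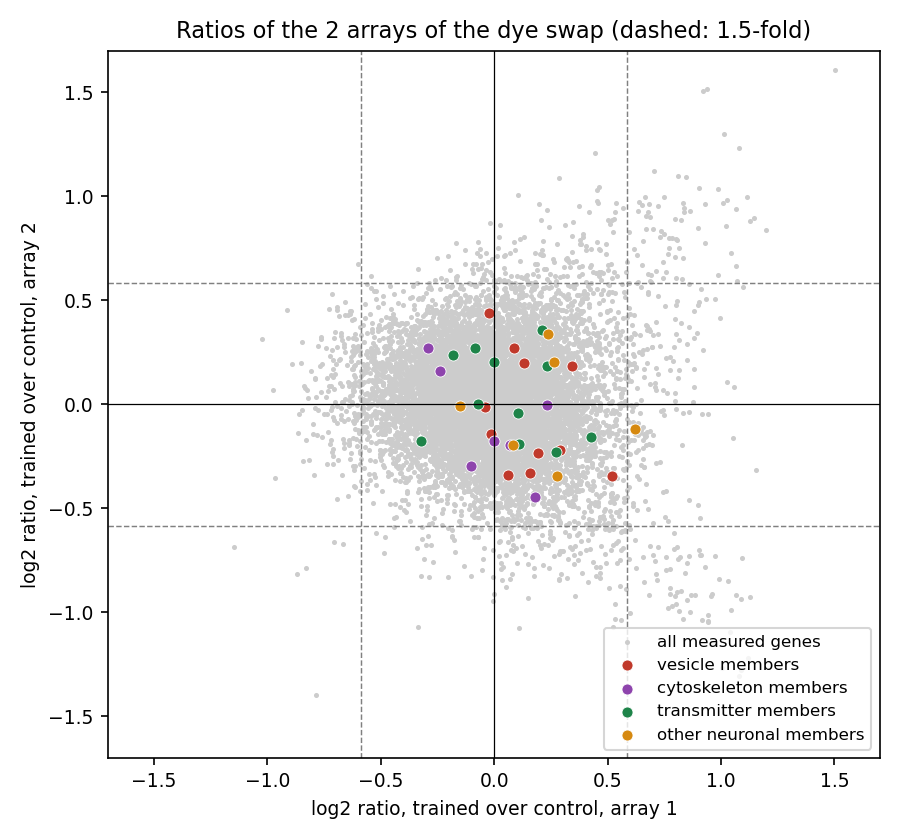
Log2 ratio of trained over control on array 1 (horizontal) and array 2 (vertical) for all 11121 measured genes (grey) and 35 of the neuronal genes, coloured by role; dashed lines mark 1.5-fold. The neuronal genes lie inside the dense centre of the cloud, with 1 gene, atp1a3b, past 1.5-fold on array 1 only.

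Of 8 cytoskeleton genes 7 were measured, and 6 of these had mean ratios below 0, as had 5643 of all 11121 measured genes. With median centring in place of loess, inab (0.05) and stmn2b (0.045) lay above 0. The arrays had the same sign for 1 of the 7, gap43, which was lower on both (14.3%), and the other 6 were opposite (85.7%). Over all measured genes the shares were 53.6% opposite, 24.3% higher and 22.1% lower. As a group the 7 cytoskeleton genes had a median ratio of -0.06, which split into 0.0011 on array 1 and -0.18 on array 2. The growth cone protein gene gap43 stood at 11.44 in trained and 11.54 in control larvae on array 1, and at 11.61 in trained and 11.90 in control larvae on array 2. By its only probe the ratios were -0.10 and -0.30, and the mean of -0.20 lay above 11.0% of all measured genes.

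The stathmin genes stmn2a and stmn2b encode regulators of microtubule ends in growing axons. For stmn2a the brightest of 6 probes had 12.45 and 12.37 in trained and 12.27 and 12.81 in control larvae on arrays 1 and 2. Its ratios were 0.18 and -0.44, which is opposite on the arrays. All 6 probes nevertheless had mean ratios below 0, within a narrow range of -0.16 to -0.09. By array they ran in both directions, and only 1 of the 6 was negative on each array. The only probe of stmn2b had 13.34 and 13.57 in trained and 13.58 and 13.41 in control larvae, with ratios of -0.24 and 0.16.

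The neurofilament genes showed no shared direction. The medium neurofilament gene nefma had ratios of 0.23 and -0.0029 on arrays 1 and 2, and its second probe had a mean of -0.046. Its duplicate nefmb had 0.0011 and -0.18, with a second probe at -0.047. The internexin gene inab, another intermediate filament gene of neurons, had -0.29 and 0.27. The microtubule-associated gene map1b had 0.069 and -0.20 by its brighter probe and -0.49 and 0.067 by the other. Both means were below 0, at -0.06 and -0.21.

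The transmitter group was measured in full, with 11 of 11 genes. The arrays were opposite for 8 of them (72.7%), while 2 were higher (18.2%) and 1 lower (9.09%) on each array. Of all measured genes, 53.6% were opposite, 24.3% higher and 22.1% lower. The median ratio of the 11 transmitter genes was 0.033, with 0.11 on array 1 and 0.0009 on array 2. It was -0.0051 by the deposited ratios. The acetylcholine synthesis gene chata had the highest ratio of the group. It stood at 7.16 in trained and 6.95 in control larvae on array 1, and at 7.12 in trained and 6.76 in control larvae on array 2. The ratios of 0.21 and 0.36 gave a mean of 0.28, or 1.22-fold. It was measured by 1 probe, and the mean ratio ranged from 0.27 to 0.48 over other ways of processing.

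Other cholinergic genes had smaller mean ratios than chata. The vesicular acetylcholine carrier gene slc18a3a had ratios of -0.07 and 0.0009. The acetylcholinesterase gene ache, whose product breaks acetylcholine down at synapses, had -0.18 and 0.24. The second acetylcholine carrier gene, slc18a3b, which is no member, had -0.12 and -0.14.

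Among glutamate carriers slc17a6b, a vesicular carrier of many excitatory neurons, stood at 7.04 in trained and 6.80 in control larvae on array 1. On array 2 it had 6.82 in trained and 6.64 in control larvae. The mean ratio of its only probe was 0.21, but it was -0.0086 by the deposited ratios, so that its direction depended on the processing. Its duplicate slc17a6a had 0.11 and -0.04, with -0.14 as the mean of the deposited ratios, and slc17a7a had 0.27 and -0.23.

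The GABA carrier gene slc32a1, which loads GABA and glycine into vesicles, had a ratio below 0 on each array. It stood at 10.57 in trained and 10.89 in control larvae on array 1, and at 10.69 in trained and 10.86 in control larvae on array 2. The control pool was brighter on each array, with ratios of -0.32 and -0.18 and a mean of -0.25, or 1.19-fold lower in the trained pool. The mean was the lowest of the 37 genes in this processing, but it was -0.13 by the deposited ratios, where gap43 had -0.14. Its other 3 probes had means of -0.12, -0.087 and -0.071, so that all 4 had means below 0. Only 3 of the 4 were negative on each array. The glycine transporter gene slc6a5, a marker of glycinergic neurons outside the member list, had ratios of -0.24 and -0.18. Other transporter genes of GABA and glycine in the longer list were not below 0 on both arrays. The GABA transporter gene slc6a1a had 0.40 and 0.12, slc6a1b had -0.45 and 0.23, and the glycine transporter gene slc6a9 had 0.06 and -0.18. Their mean ratios were 0.26 for slc6a1a, -0.11 for slc6a1b and -0.06 for slc6a9.

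By the means of their brightest probes, 0.09 for gad1b and -0.04 for gad2, the GABA synthesis genes stood nearer to 0 than slc32a1. This did not hold for every probe of gad1b. The brightest of 5 probes of gad1b had ratios of -0.09 and 0.27, and the means of the 5 ran from -0.09 to 0.28. For gad2, the gene with the most probes, 3 of 9 had means above 0 and 6 below it. They ran from -0.21 to 0.13, and the brightest had 0.11 and -0.19. Only 4 of these 9 probes had the same sign on both arrays, 2 in each direction.

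The monoamine genes varied between their probes. The tyrosine hydroxylase gene th, which marks dopaminergic and noradrenergic neurons, had ratios of -0.0007 and 0.20 by its brightest probe. A second probe of th had a mean of -0.10, and another was not well above background in either pool. The tryptophan hydroxylase gene tph2, which marks serotonergic neurons, had 0.43 and -0.15 by its brightest measured probe. The next had 0.11 and 0.41, and the dimmest measured one -0.29 and 0.22. The other 3 member probes that were not measured belonged to tph2, slc18a3a and cntn2. No member probe was well above background in 1 pool on both arrays and in the other on neither.

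The other neuronal genes numbered 6, all measured, with a median ratio of 0.10, which split into 0.25 on array 1 and -0.06 on array 2. It was 0.016 when each gene was taken by the probe whose arrays were closest. The arrays were opposite for 3 of the 6 genes (50%), while 2 were higher (33.3%) and 1 lower (16.7%) on each array. Of all measured genes, 53.6% were opposite, 24.3% higher and 22.1% lower. The RNA-binding protein gene elavl3, a marker of young and mature neurons (HuC), was brighter in the trained pool on each array. It stood at 9.20 in trained and 8.97 in control larvae on array 1, and at 9.02 in trained and 8.68 in control larvae on array 2. By its only probe the ratios were 0.24 and 0.34, with a mean of 0.29, close to the 0.28 of chata. The deposited ratios gave 0.12 for elavl3 and 0.45 for chata. Its relative elavl4 (HuD) had 0.28 and -0.35 by the brightest of 3 probes, whose means ran from -0.18 to 0.019.

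The homeobox gene isl2a, expressed in motor and sensory neurons, had 8.11 in trained and 7.85 in control larvae on array 1. On array 2 it had 7.90 in trained and 7.70 in control larvae, with a mean ratio of 0.23. Its other 2 probes had means of 0.10 and -0.08, and the mean over its 3 probes was 0.08. The sodium pump gene atp1a3b had the largest ratio of any member on 1 array, 0.62 on array 1, but -0.12 on array 2. Its other 3 probes had means of 0.11, -0.0005 and -0.025. The duplicate atp1a3a had 0.085 and -0.20. The adhesion gene cntn2, expressed on growing axons, had 6.73 and 6.96 in trained and 6.88 and 6.97 in control larvae on arrays 1 and 2. Its mean ratio was -0.08, and its second measured probe had 0.11.

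**Figure D3:**
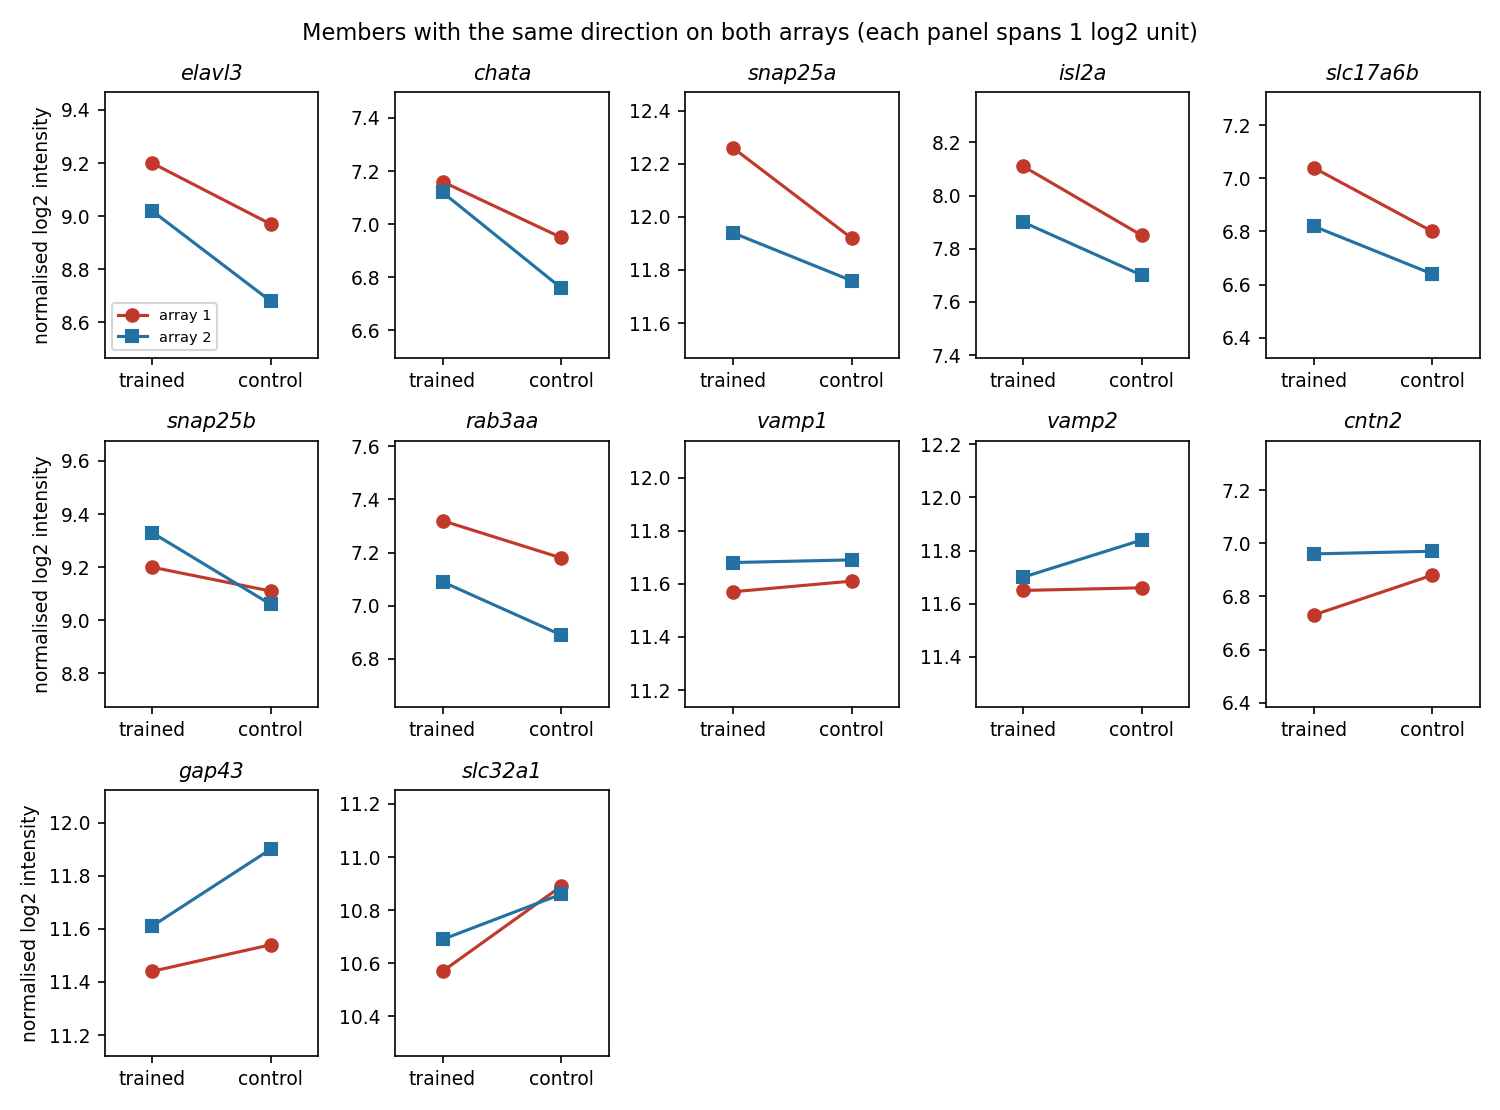
Normalised log2 intensity of 12 genes with the same direction on both arrays, with the trained pool left of the control pool, for array 1 (circles) and array 2 (squares). Each panel spans 1 log2 unit, and levels of different panels come from different probes and are not comparable. The first 7 panels slope down towards the control pool, and the last 5 slope up or are nearly flat.

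How far the probes of a gene shared a direction could be seen for the 23 members with at least 2 measured probes, 76 probes in all. In 2 of them, snap25b and cplx4a, every probe had a mean ratio above 0, which is 8.7% against 26.7% of 6037 genes with at least 2 measured probes. In 6 of them, stmn2a, slc32a1, nrxn1a, map1b, nefmb and atp1a3a, every probe was below 0, which is 26.1% against 29.9% of all such genes. In the other 15 the probes lay on both sides of 0. Probes in both directions were found for 43.3% of all such genes. Of 9 members with at least 4 measured probes, 3 (stmn2a, slc32a1 and nrxn1a) had every probe below 0 and 0 had every probe above it. Among all 720 genes with at least 4 measured probes, 21.8% had every probe below 0, 11.5% had every probe above it, and 66.7% had probes in both directions. Probes of a gene measured the same RNA and are not replicates. For the member cplx2, counted here with 4 probes, these came from cplx2a and cplx2b, which count separately among all genes.

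**Figure D4:**
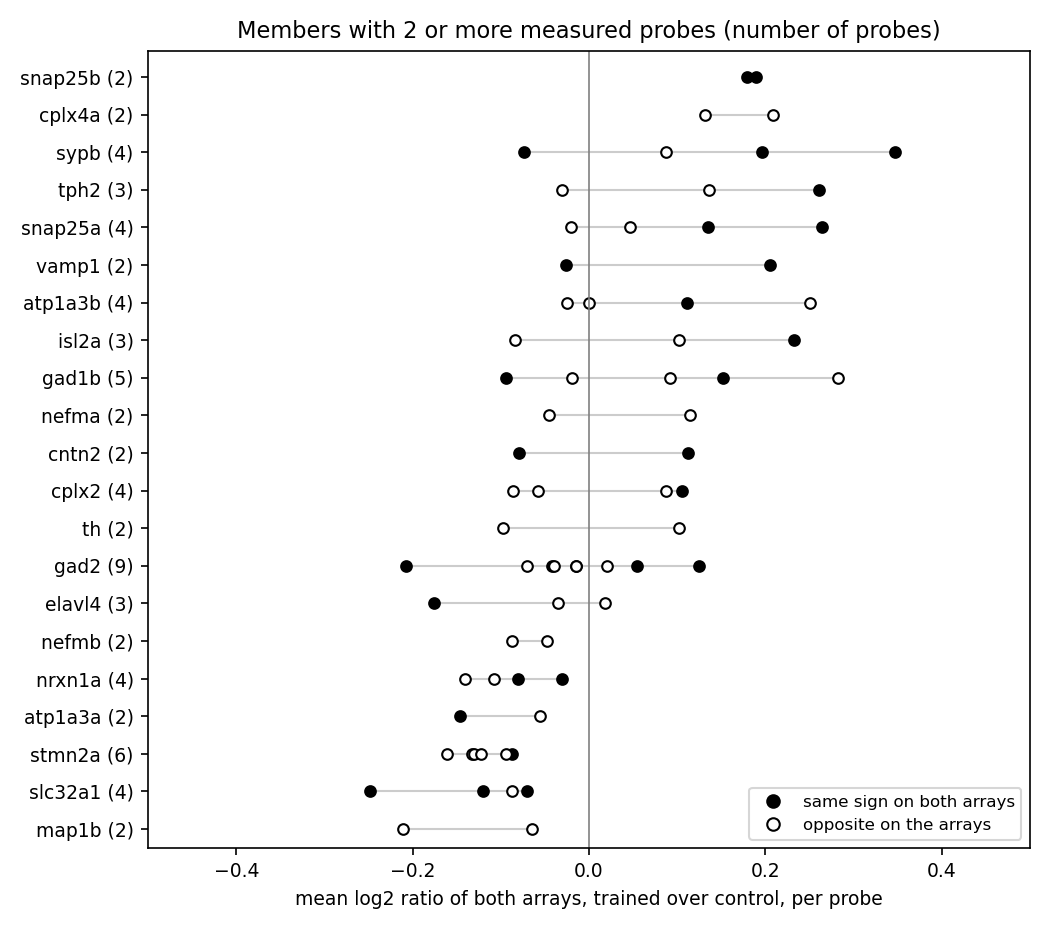
Mean log2 ratio of trained over control of each measured probe for 21 members with at least 2, sorted by the mean over their probes; filled points had the same sign on both arrays and open points were opposite. The probes of stmn2a, slc32a1 and nrxn1a all lie left of 0, and those of snap25b and cplx4a right of it.

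Duplicated or closely related genes were compared within 11 pairs in which both genes were measured. In 4 pairs the difference had the same sign on both arrays, among them the following 3. For atp1a3a minus atp1a3b it was -0.54 and -0.07. For slc17a6a minus slc17a6b it was -0.13 and -0.22, and for nefma minus nefmb 0.23 and 0.17. In the other 7 pairs the arrays gave differences of opposite sign, among them snap25a minus snap25b with 0.26 and -0.09 and gad1b minus gad2 with -0.20 and 0.46.

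Levels of other pair members, each by its brightest probe, follow. On arrays 1 and 2, sypa had 7.60 and 7.46 in trained and 7.41 and 7.69 in control larvae, and sypb 12.44 and 12.11 in trained and 11.92 and 12.45 in control larvae. By these probes both synaptophysin genes had a brighter trained pool on array 1 and a brighter control pool on array 2. The same held for cplx2, with 10.17 and 10.06 in trained and 10.01 and 10.39 in control larvae, whereas cplx4a went the other way, with 8.49 and 8.78 in trained and 8.52 and 8.34 in control larvae. By the brightest probe of each of these genes, the range of the trained values overlapped that of the control values. The overlap did not hold for every probe of sypb and cplx2.

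For the neurofilament pair, nefma had 9.44 and 9.18 in trained and 9.21 and 9.18 in control larvae, and nefmb 9.73 and 9.63 in trained and 9.73 and 9.81 in control larvae. For the sodium pump pair, atp1a3b had 11.83 and 11.41 in trained and 11.21 and 11.53 in control larvae, and atp1a3a 9.03 and 9.02 in trained and 8.94 and 9.21 in control larvae. By its brightest probe, each of these genes was level or brighter in the trained pool on array 1 and level or dimmer on array 2. The GABA synthesis gene gad1b had 9.65 and 9.56 in trained and 9.74 and 9.29 in control larvae, and gad2 11.25 and 10.96 in trained and 11.14 and 11.15 in control larvae, which is opposite in order on each array. The carrier gene slc17a6a had 7.07 and 6.88 in trained and 6.96 and 6.92 in control larvae. The HuD gene elavl4 had 10.60 and 10.40 in trained and 10.33 and 10.75 in control larvae, with the order of the pools reversed between the arrays.

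Further genes of the same roles were taken from 4 longer lists of 209 genes in all, of which 112 were measured. None of them was 1.5-fold higher or lower on both arrays, 2 were at least 1.2-fold higher and 1 was at least 1.2-fold lower. Of all measured genes, 0.638% were 1.5-fold higher and 0.054% lower, and 3.74% were 1.2-fold higher and 1.35% lower. The arrays were opposite for 71 of the 112 genes (63.4%, against 53.6% of all measured genes). On each array 22 were higher (19.6%, against 24.3%) and 19 lower (17%, against 22.1%). The median of the 112 was 0.012. The internexin gene inaa, the counterpart of inab, had ratios of 0.38 and 0.66 on arrays 1 and 2. It was measured by 1 probe, and its mean ratio of 0.52 was the highest of the 112. The secretory granule gene scg5 had 0.30 and 0.27. The beta-tubulin gene tubb2b had -0.44 and -0.59, but its other probe had a mean of only -0.08.

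By role, 26 further vesicle genes were measured, of which 20 were opposite on the arrays (76.9%), 2 higher (7.69%) and 4 lower (15.4%). Of all measured genes, 53.6% were opposite, 24.3% higher and 22.1% lower. The synaptotagmin gene syt11a had 0.21 and 0.22, with another probe at -0.12, and the tomosyn gene stxbp5a had 0.089 and 0.18. The retinal complexin gene cplx3a had -0.09 and -0.08, and syt11b had -0.05 and -0.24. Of 21 further cytoskeleton genes, 2 had positive (9.52%) and 5 negative ratios (23.8%) on each array. The synuclein gene sncgb had 0.029 and 0.50, and the doublecortin-like kinase gene dclk1a had -0.40 and -0.16. Of 26 further transmitter genes, 8 had positive (30.8%) and 7 negative ratios (26.9%) on each array. Their mean ratios had a median of -0.04, while the medians on arrays 1 and 2 were 0.016 and 0.041. The glutamate uptake gene slc1a3a had 0.25 and 0.25, with another probe at -0.07, and the pterin recycling gene pcbd1 had 0.37 and 0.22. The glutaminase gene glsa had -0.15 and -0.24. Of 39 further general neuronal genes, 10 had positive (25.6%) and 3 negative ratios (7.69%) on each array. The granin gene scg2b had 0.13 and 0.35, the splicing factor gene nova1 had -0.25 and -0.08, and the G protein gene gng3 had -0.21 and -0.07.

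Markers of cells that lie beside neurons or share genes with them were set beside these values. Glial markers had a median ratio of -0.0056 over 6 measured genes, with 3 means above 0 and 3 below it. The radial glia gene her4.1 had ratios of 0.099 and 0.62, with another probe at a mean of -0.025, and the glutamate uptake gene slc1a2b had -0.07 and -0.32. All 6 measured myelin markers were opposite on the arrays, as were all 6 fast muscle markers and 53.6% of all measured genes. Neural progenitor markers had a median of 0.041 over 6 genes, of which 4 were opposite, with sox2 at 0.32 and 0.087 and sox3 at -0.48 and -0.07. Islet cells are endocrine cells that share vesicle genes with neurons. Their markers had a median of 0.20, with all 5 means above 0, as had 5478 of all 11121 measured genes. Among the islet markers, sst2 had 0.42 and 0.48 and gcga 0.46 and 0.29. The 4 measured liver markers had a median of 0.72. Only 1 of 5 pituitary markers was measured, pomca, with -0.09 and -0.15. The part of these cells in the ratios of the members was not tested.

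**Figure D5:**
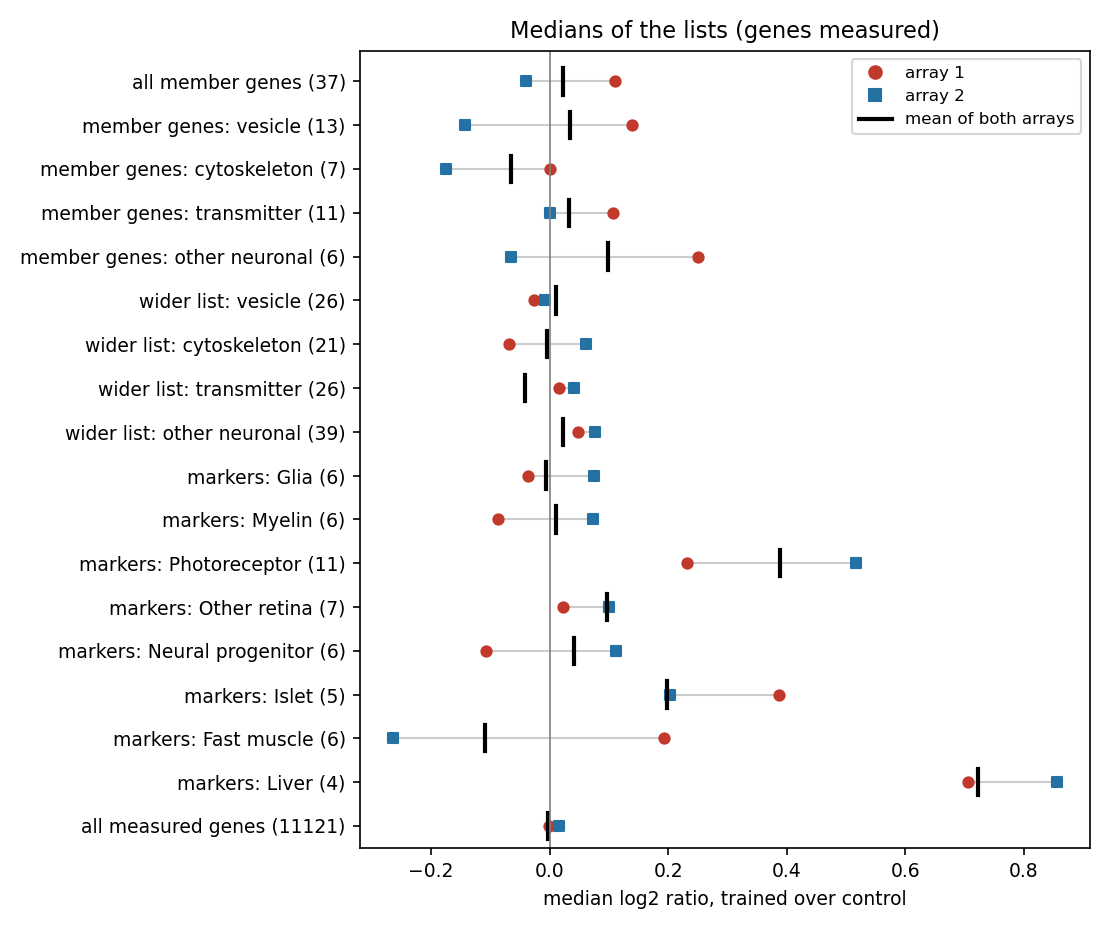
Median log2 ratio of trained over control of the member genes, the longer lists and the marker lists (number of genes measured in brackets), on array 1 (circles), array 2 (squares) and for the mean of both arrays (bars). By the mean of both arrays, medians of the neuronal lists lie between -0.06 and 0.10 and those of photoreceptor, islet and liver markers above them; on single arrays the neuronal medians reach -0.18 and 0.25.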

How the data were processed

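RNA of 1 trained and 1 control pool was measured on 2 arrays that exchange the dyes and count as 1 replicate. Per the file headers, the deposited scanner files give the median spot and background intensity in both channels, detection flags, and a log10 ratio of Cy5 over Cy3. The submitters' processing notes name Agilent Feature Extraction, version 10.5.1.1. In the deposited series value table, each column is this log10 ratio, turned in sign for array 2, with a median of 0.

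The ratios were rebuilt with limma 3.58.1 in R 4.3.3: normexp with an offset of 50, loess within each array with control and outlier spots at weight 0, sign turned on array 2, and spots and arrays averaged. Levels of each pool were taken after Aquantile scaling. Later steps used Python 3.11.15, numpy 2.4.6 and pandas 2.3.3. Unversioned accessions in a RefSeq table of assembly GRCz12tu named 25173 probes, and 18430 stayed unnamed. Since the probes were designed on another build, coordinates are left out. A gene was its brightest measured probe.

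The members, the longer lists and the rules were chosen with earlier results of these data known. By rule, levels were given for members with the same sign on both arrays and members of related pairs. Ratios without levels were given for the 2 highest and 2 lowest genes of each longer list by the smaller ratio. The same was done for up to 2 genes of a marker list. The other members, slc18a3b, slc6a1a, slc6a1b, slc6a9, cplx3b, rho and the values of single dimmer probes were picked with their values in view. Some members' own values are not reported here, while counts and medians cover all that were measured.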

Additional observations from a re-analysis of the deposited data

How the results depend on the processing

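No member was 1.5-fold higher or lower on both arrays under any of the 9 alternatives run on both arrays, nor under a 2-fold rule. On 1 array alone the count was 0 to 1 on the higher side (atp1a3b on array 1) and 0 on the lower side. Members 1.2-fold higher numbered 3 with an offset of 0 (chata and slc17a6b among them, with 5.18% of all genes) and 1 with median centring (3.82% of all genes), and 6 to 9 on 1 array alone, while members 1.2-fold lower numbered 2 to 7 there. Members higher and lower on both arrays numbered 8 and 5 here, 11 and 9 by the deposited ratios (the series value table holds the same), 12 and 8 for the mean over probes, and 11 and 12 with the probe whose arrays were closest. Of all genes, 25.1% and 26% were higher and lower by the deposited ratios, 25.7% and 24.4% for the mean over probes, and 29.5% and 27.8% with the probe whose arrays were closest. On 1 array alone 15 to 25 were positive and 12 to 22 negative. Shares of all genes are not given for 1 array alone, so no count there is read as a result about the members. The median over the members ranged from -0.0011 to 0.05. Of the 37 genes 19 kept the sign of their mean ratio under all 9 alternatives, 12 above 0 and 7 below it, and 18 did not. Those that did not included slc17a6b, at -0.0086 by the deposited ratios. The share of all genes that kept their sign is not given, so these counts are not read as a result about the members. Loosening or dropping the filter on dim probes changed no member's value, and the series value table repeated the deposited ratios. These alternatives therefore added no check of their own. For the 14 members with 1 measured probe, the alternatives in the choice of probe could not change the sign either. Median centring moved the median of all genes to 0.036. The cause of these shifts was not tested. No paired analysis was possible because both arrays measured the same pools. Ranges show processing, not spread between fish.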
